A study of Mus musculus with 12 samples.

Results

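Mice with colitis received either GR159897, which blocks the neurokinin-2 (NK2) receptor, or its vehicle, and the ribosome-bound RNA of their enteric glia was compared. The comparison used the 6 libraries labelled DNBS_GR159897 or DNBS_Vehicle, 3 of each, out of 12 in the series. Both groups were C57BL/6 mice with a tamoxifen-dependent Cre recombinase driven by Sox10 (Sox10::CreERT2+/-) and the allele Rpl22tm1.1Psam/J, an HA-tagged copy of a ribosomal protein gene that Cre switches on. They ate tamoxifen chow (400 mg/kg) for 2 weeks and plain chow for 1 week. GR159897 was given at 0.5 mg/kg in 0.1% DMSO, and the vehicle mice had 0.1% DMSO alone, by daily intraperitoneal injection over 3 days from 24 hours before the enema. Every mouse of both groups then had an enema of 0.1 mL that held 5 mg of dinitrobenzene sulfonic acid (DNBS) in 50% ethanol, so neither DNBS nor ethanol separates the groups. The other libraries, 3 of Saline_GR159897 and 3 of Saline_Vehicle, came from mice with this genotype and the same injections but a saline enema, without ethanol. They entered the fit, and their values are given beside some results. The ages are not in the labels used here. The distal colon was taken 48 hours after that enema, its myenteric plexus was used, and 1 ng of RNA per sample entered the library. DNBS_GR159897 held 2 females (replicates 1 and 2) and 1 male, and DNBS_Vehicle held 1 female (replicate 1) and 2 males. The labels do not say that replicates are separate animals, so p-values measure only the spread between these samples.

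Tacr2 encodes the NK2 receptor, which couples to the G protein Gq and raises calcium in the cell, and its preferred ligand is neurokinin A, a peptide encoded by Tac1 together with substance P. Enteric neurons release both peptides, and tachykinins act on smooth muscle, neurons and glia of the gut. Enteric glia surround these neurons, respond to injury by a reactive change of their own, and release cytokines and purines in colitis. DNBS is a hapten that, with ethanol to break the mucosal barrier, causes an acute inflammation of the colon.

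Values are FPKM, fragments scaled to transcript length and to the mapped fragments of the library, with an unknown depth per library, and were tested as log2(FPKM + 1) in 12778 annotated genes that reached 1 FPKM in 3 or more of the 12 libraries. The libraries were not alike. Among the 6 libraries, DNBS_GR159897 replicate 1 (called replicate 1 from here) correlated with the other 5 at Pearson's r of 0.521 to 0.599 across genes, whereas those 5 correlated with each other at 0.782 to 0.871; genes are not independent replicates, and these values are a description. The summed FPKM of 20 epithelial markers was 3241, 24.2 and 64.4 FPKM in DNBS_GR159897 libraries, against 102, 3.29 and 185 FPKM in DNBS_Vehicle libraries. The summed FPKM of 15 enteric glial markers was 20.5, 884 and 1108 FPKM in DNBS_GR159897 libraries, against 2045, 1189.7 and 1432 FPKM in DNBS_Vehicle libraries. Replicate 1 thus had the highest epithelial and the lowest glial sum of all 6, and its label of glial RNA is not borne out by S100b at 1.17 and Gfap at 0.9 FPKM. Sox10, at 1.3 FPKM there, set it apart less, with 4.63 and 6.79 FPKM in replicates 2 and 3 and 9.04 FPKM in DNBS_Vehicle replicate 1. Annotated loci held 22.6, 56.4 and 64.5% of the summed FPKM in the DNBS_GR159897 libraries, against 75.6, 53.8 and 84.0% in the DNBS_Vehicle libraries. Fits and counts are therefore given with all libraries and without replicate 1. In these bulk samples, fewer cells of a type and less RNA per cell cannot be told apart.

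**Figure D1:**
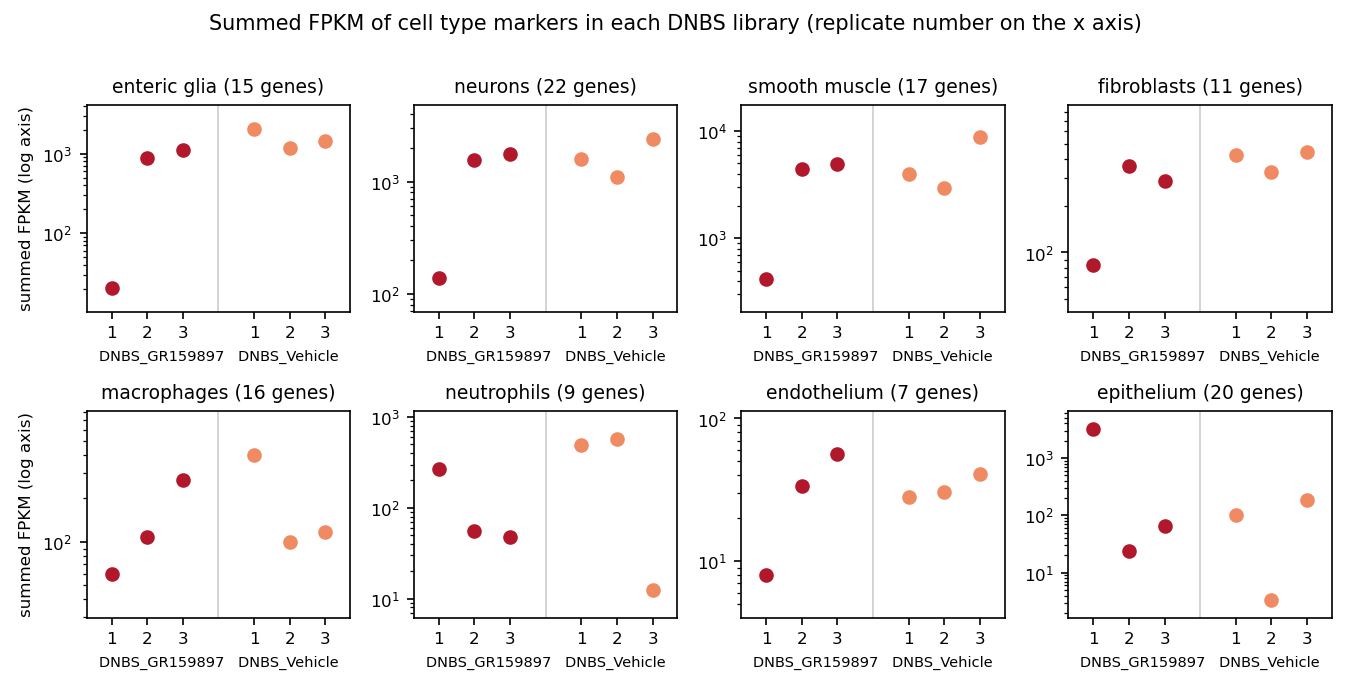
Summed FPKM of the markers of 8 cell types (log axis) in each of the 3 DNBS_GR159897 and 3 DNBS_Vehicle libraries, 1 point per library, with the replicate number on the x axis. In replicate 1 of DNBS_GR159897 epithelial markers sum to 3241 FPKM and glial markers to 20.5 FPKM, and neutrophil markers range from 12.3 to 578 FPKM among the DNBS_Vehicle libraries.

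With all libraries, 0 of 12778 genes passed an adjusted p of 0.05 (0.0%; limma with Benjamini-Hochberg adjustment), and the smallest adjusted p was 0.122, for Cxcl5. At an unadjusted p under 0.05 there were 1039 genes (8.13%), of which 312 were higher under the antagonist (2.44%) and 727 lower (5.69%). When annotated loci were scaled to 1 total per library the split was 665 higher and 313 lower, and after quantile normalisation 523 higher and 441 lower, so the balance of directions depended on the scaling. Without replicate 1, 1 gene passed, Gas1 (0.00783%), and 580 genes had an unadjusted p under 0.05 (4.54%), 236 higher (1.85%) and 344 lower (2.69%), or 331 higher and 232 lower after scaling to the annotated total. The 3 values of each group did not overlap in 408 genes that were higher (3.19%) and 880 that were lower (6.89%) under GR159897, and without replicate 1 in 919 higher (7.19%) and 1150 lower (9.0%). There was no overlap and the unadjusted p was under 0.05, with and without replicate 1, in 97 genes that were higher under GR159897 (0.759%) and 221 that were lower (1.73%). The 28 genes described next are the 14 of each direction with the smallest p-values in both fits among characterised genes that average at least 3 FPKM in 1 of the groups, so that their groups do not overlap is part of how they were chosen.

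Of the 14 higher genes, Cxcl5 and Gas1 had the smallest adjusted p with all libraries. Cxcl5, a chemokine that draws neutrophils through the receptor CXCR2, had 6.42, 7.83 and 10.5 FPKM in DNBS_GR159897 libraries, against 0.75, 0.05 and 1.25 FPKM in DNBS_Vehicle libraries. All 3 antagonist libraries were above all vehicle libraries, and the saline libraries had 0 to 1.11 FPKM. Beyond the antagonist libraries, only DNBS_Vehicle replicate 3 and Saline_GR159897 replicate 3 reached 1 FPKM. Cxcl5 would thus not have met the filter without DNBS_GR159897 libraries. For Cxcl5 the log2 fold change was 2.50 ± 0.38 (adjusted p = 0.122), and 2.65 ± 0.42 without replicate 1 (adjusted p = 0.15). With all libraries the adjusted p of Cxcl5 was 0.0121 to 0.741 over the alternatives, and it was under 0.05 scaled to the annotated total (0.027), after quantile normalisation (0.0456) and with library weights. Gas1, a membrane-anchored co-receptor of Sonic hedgehog known for holding cells in growth arrest, had 1.35, 10.9 and 12.7 FPKM in DNBS_GR159897 libraries, against 0, 0 and 0 FPKM in DNBS_Vehicle libraries. It was listed at 0 in all 3 DNBS_Vehicle and all 6 saline libraries, so no fold is given. Gas1 met the filter of 1 FPKM in 3 libraries only through the 3 DNBS_GR159897 libraries, replicate 1 included. Its place among the genes tested was therefore not independent of the comparison. Gas1 was higher in DNBS_GR159897 with an adjusted p of 0.182 with all libraries and 0.000385 without replicate 1. That call rests on 2 libraries against 9 at 0: the adjusted p was 0.146 when only the DNBS groups were fitted and 0.129 with a pseudocount of 0.1. It was 0.00129 to 0.00267 when 1 DNBS_Vehicle or saline library was also left out. Each library left out in those fits was at 0, so they cannot show that the call is stable. Leaving out replicate 2 or 3 as well leaves 1 antagonist library, and no p is given for that. A locus of the same name without an annotated transcript had 0, 0.4 and 0.77 FPKM in DNBS_GR159897 libraries, against 0, 0 and 0 FPKM in DNBS_Vehicle libraries, and 0.17 to 1.94 FPKM in the saline libraries. Gas1 lies at chr13:60174405-60177365 on the minus strand (GRCm38, GENCODE) and shares exon sequence with Gm48488 on the other strand, whose reads cannot be told from its own because the kit does not mark strand.

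Cxcl5 (chr5:90759360-90761624) lies on the plus strand in a cluster with Ppbp, Cxcl1 and Cxcl2, whose products also act on CXCR2. The 250 bases before the RefSeq start (GRCm38.p6) are shown for Cxcl1 (chr5:90890995-90891244, plus strand) and Cxcl2 (chr5:90903649-90903898, plus strand), because these neighbours had other values than Cxcl5, and for Gas1 (chr13:60177536-60177785, minus strand), because it was the gene that passed. Capitals mark matches on either strand of GGAATTTCC, a core of the NF-kB motif, the binding site of a factor that drives inflammatory genes.
Cxcl1: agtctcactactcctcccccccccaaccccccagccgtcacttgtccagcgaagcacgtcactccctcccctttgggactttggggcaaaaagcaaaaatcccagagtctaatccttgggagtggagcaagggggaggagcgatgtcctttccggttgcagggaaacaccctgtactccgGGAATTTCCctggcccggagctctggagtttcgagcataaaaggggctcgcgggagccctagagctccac
Cxcl2: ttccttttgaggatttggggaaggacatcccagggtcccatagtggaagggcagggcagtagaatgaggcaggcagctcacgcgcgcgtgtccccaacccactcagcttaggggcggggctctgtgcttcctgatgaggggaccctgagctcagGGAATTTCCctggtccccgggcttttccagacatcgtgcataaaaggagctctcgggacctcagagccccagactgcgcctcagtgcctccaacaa
Gas1: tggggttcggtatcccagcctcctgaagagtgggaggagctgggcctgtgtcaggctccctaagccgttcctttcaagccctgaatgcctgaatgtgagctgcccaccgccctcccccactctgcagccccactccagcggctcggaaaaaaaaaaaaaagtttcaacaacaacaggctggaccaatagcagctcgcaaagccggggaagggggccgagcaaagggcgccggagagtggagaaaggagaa
Cxcl1 held 1 match, at -70 to -62 from the start, and Cxcl2 held 1, at -96 to -88, while 0.286% of 32851 RefSeq promoters hold any in the same 250 bases. The Gas1 window held none. Cxcl5 has no entry among these promoters, so its own window was not searched. The matches therefore cannot set Cxcl1 and Cxcl2 apart from Cxcl5. The letters searched for AP-1 (TGANTCA, in 6.75% of promoters), the cyclic AMP response element (TGACGTCA, 1.55%), ATF4 (TGATGCAA, 0.791%) and the heat shock element (GAANNTTC, 6.69%) were in none of the 3 windows, on either strand. Cxcl1 had 0, 9.67 and 6.45 FPKM in DNBS_GR159897 libraries, against 28.9, 11.2 and 11.3 FPKM in DNBS_Vehicle libraries, lower under GR159897, with no overlap. Cxcl2 had 73.4, 7.06 and 8.79 FPKM in DNBS_GR159897 libraries, against 45.05, 23.99 and 1.29 FPKM in DNBS_Vehicle libraries, and its groups overlap. For Cxcl1 the log2 fold change was -1.94 ± 0.85 (adjusted p = 0.607) with all libraries and -0.89 ± 0.70 without replicate 1, and for Cxcl2 it was 0.39 ± 1.12 (adjusted p = 0.916) with all libraries and -0.64 ± 1.13 without replicate 1. Ppbp, a platelet chemokine, had 1.52, 0.12 and 0 FPKM in DNBS_GR159897 libraries, against 12.5, 2.3 and 0 FPKM in DNBS_Vehicle libraries, also overlapping. Cxcl5 was thus the member of this cluster with every antagonist library above every vehicle library, and Cxcl1 had the opposite order, at an adjusted p above 0.05.

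Phlda1, Rab20, Cdc25b and Cdc7 were also among the 14 higher genes. Phlda1, a pleckstrin-homology protein induced by growth factors, had 7.17, 8.59 and 26.4 FPKM in DNBS_GR159897 libraries, against 0, 3.47 and 0 FPKM in DNBS_Vehicle libraries. For Phlda1 the log2 fold change was 2.97 ± 0.63 (adjusted p = 0.38), and 3.30 ± 0.69 without replicate 1 (adjusted p = 0.464). Rab20, a small GTPase of endosomes and phagosomes, had 7.48, 11.2 and 27.5 FPKM in DNBS_GR159897 libraries, against 1.26, 4.55 and 0.87 FPKM in DNBS_Vehicle libraries. Both were highest in replicate 3 of the antagonist group and in neither did the groups overlap. For Rab20 the log2 fold change was 2.33 ± 0.66 (adjusted p = 0.543), and 2.71 ± 0.71 without replicate 1 (adjusted p = 0.707). Cdc25b, the phosphatase that activates cyclin-dependent kinases at entry into mitosis, had 9.72, 4.85 and 6.37 FPKM in DNBS_GR159897 libraries, against 1.38, 2.44 and 0.18 FPKM in DNBS_Vehicle libraries. For Cdc25b it was 1.86 ± 0.50 (adjusted p = 0.54), and 1.62 ± 0.54 without replicate 1 (adjusted p = 0.929). Cdc7, the kinase that fires origins of replication, had 7.67, 3.75 and 1.31 FPKM in DNBS_GR159897 libraries, against 0.16, 0.56 and 0.94 FPKM in DNBS_Vehicle libraries, with the highest value in replicate 1. For Cdc7 it was 1.59 ± 0.44 (adjusted p = 0.543) with all libraries and 1.12 ± 0.41 without replicate 1. The DNBS_Vehicle and saline values of Cdc7 were 0.98 FPKM or less, so it met the filter only through the DNBS_GR159897 libraries. Its place among the genes tested was therefore not independent of the comparison.

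Ufsp1, a protease of the ubiquitin-like modifier UFM1, had 3.64, 7.42 and 8.08 FPKM in DNBS_GR159897 libraries, against 0, 0 and 0 FPKM in DNBS_Vehicle libraries, and 10.2 FPKM in Saline_GR159897 replicate 1 with 0 in the other saline libraries. Ufsp1 would thus not have met the filter without DNBS_GR159897 libraries. Plaa, which acts with the ATPase p97 in ubiquitin-dependent turnover, had 5.69, 3.84 and 6.28 FPKM in DNBS_GR159897 libraries, against 2.1, 2.08 and 1.67 FPKM in DNBS_Vehicle libraries. Man1b1, a mannosidase that marks misfolded glycoproteins for degradation, had 3.78, 3.93 and 6.7 FPKM in DNBS_GR159897 libraries, against 1.36, 2.35 and 2.33 FPKM in DNBS_Vehicle libraries. None of the 3 had overlapping groups, and the adjusted p was 0.534, 0.551 and 0.607 for Ufsp1, Plaa and Man1b1 with all libraries. Without replicate 1 it was 0.707 for Ufsp1 and 0.999 or more for Plaa and Man1b1. Fam13b, a protein with a RhoGAP domain, had 10.3, 7.21 and 2.3 FPKM in DNBS_GR159897 libraries, against 1.16, 0.63 and 2.07 FPKM in DNBS_Vehicle libraries, and an unannotated locus of the same name had 10.8, 4.17 and 4.38 FPKM in DNBS_GR159897 libraries, against 0.49, 0.56 and 1.07 FPKM in DNBS_Vehicle libraries. Setd4, a SET-domain methyltransferase, had 12.2, 4.2 and 2.27 FPKM in DNBS_GR159897 libraries, against 0.93, 0.92 and 1.12 FPKM in DNBS_Vehicle libraries. The remaining Fam219b, Fubp3 and Lrrc51 had log2 fold changes of 2.30, 1.01 and 1.63, all at an adjusted p of 0.543 to 0.607, and of 2.71, 1.04 and 1.26 without replicate 1. When unannotated loci of the same names were added, the groups overlapped for Fubp3 and Lrrc51. In 9 of the 14 higher genes the 3 DNBS_GR159897 libraries were above all 9 other libraries of the series (Cxcl5, Gas1, Phlda1, Rab20, Setd4, Cdc25b, Fubp3, Plaa and Cdc7), and in 2 the DNBS_Vehicle libraries were below all others (Man1b1 and Lrrc51). With unannotated loci of the same names added, Gas1, Fubp3, Man1b1 and Lrrc51 lost these patterns. All 14 genes were chosen for separate DNBS groups, and the share of such patterns over all genes was not counted.

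The 14 lower genes, also chosen for separate DNBS groups, held 2 patterns of values across the 4 groups. How often each pattern occurs over all genes was not counted. In 3 of them, Klk6, Jaml and Gdf15, the DNBS_Vehicle libraries stood above all 9 other libraries. Klk6, a secreted serine protease of the kallikrein family expressed by glia of the central nervous system, had 0, 0.59 and 0.74 FPKM in DNBS_GR159897 libraries, against 3.08, 5.72 and 4.17 FPKM in DNBS_Vehicle libraries. Its saline libraries had 0 to 0.49 FPKM, so it met the filter only through the DNBS_Vehicle libraries. For Klk6 the log2 fold change was -1.89 ± 0.33 (adjusted p = 0.152), and -1.65 ± 0.34 without replicate 1 (adjusted p = 0.463). Jaml, an adhesion molecule of leukocytes that cross the epithelium, had 0.92, 1.94 and 0.59 FPKM in DNBS_GR159897 libraries, against 7.15, 5.05 and 6.71 FPKM in DNBS_Vehicle libraries. Its saline libraries had 0.16 to 1.94 FPKM. Outside DNBS_Vehicle, Jaml reached 1 FPKM only in DNBS_GR159897 replicate 2 and Saline_GR159897 replicate 3. It would thus not have met the filter without DNBS_Vehicle libraries. For Jaml the log2 fold change was -1.80 ± 0.34 (adjusted p = 0.229), and -1.74 ± 0.38 without replicate 1 (adjusted p = 0.51). Gdf15, a cytokine of the TGF-beta family that cells release under stress, had 1.14, 3.00 and 5.26 FPKM in DNBS_GR159897 libraries, against 79.9, 26.9 and 12.2 FPKM in DNBS_Vehicle libraries. Its saline libraries had 0 to 4.44 FPKM, the highest in Saline_GR159897 replicate 3. For Gdf15 the log2 fold change was -3.04 ± 0.66 (adjusted p = 0.406), and -2.63 ± 0.71 without replicate 1 (adjusted p = 0.707). In all 3 genes the antagonist libraries were near or within the range of the saline libraries.

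In the other 11 lower genes the DNBS_GR159897 libraries were below all 9 other libraries, at the annotated locus. With unannotated loci of the same names added, Rac1, Adam10, Nploc4 and Meox2 lost this pattern. Rac1, a small GTPase that drives actin branching and lamellipodia, had 7.83, 7.84 and 9.73 FPKM in DNBS_GR159897 libraries, against 62.00, 75.8 and 73.7 FPKM in DNBS_Vehicle libraries. Its saline values were 131, 68.4 and 13.9 FPKM in Saline_GR159897 libraries and 102, 86.7 and 107 FPKM in Saline_Vehicle libraries. All 3 antagonist libraries lay within 2 FPKM of each other, below the lowest other library, a Saline_GR159897 one. For Rac1 the log2 fold change was -2.92 ± 0.65 (adjusted p = 0.406), and -2.87 ± 0.68 without replicate 1 (adjusted p = 0.51). Rac1 (chr5:143503634-143528036, minus strand) shares exon sequence with Daglb on the other strand, and 3 unannotated loci named Rac1 summed to 25.8, 15.3 and 5.59 FPKM in DNBS_GR159897 libraries, against 3.72, 1.55 and 3.91 FPKM in DNBS_Vehicle libraries, the opposite order. Adam10, the membrane protease that sheds Notch receptors and EGF-family ligands, had 1.14, 1.84 and 1.08 FPKM in DNBS_GR159897 libraries, against 14.8, 47.8 and 6.12 FPKM in DNBS_Vehicle libraries. Its saline libraries had 3.11 to 18.5 FPKM. For Adam10 the log2 fold change was -2.92 ± 0.65 (adjusted p = 0.406), and -2.86 ± 0.74 without replicate 1 (adjusted p = 0.702). Ctsb, the lysosomal protease cathepsin B, had 28.1, 162 and 56.1 FPKM in DNBS_GR159897 libraries, against 407, 533 and 332 FPKM in DNBS_Vehicle libraries. The highest antagonist library was below the lowest saline library, at 178 FPKM, by less than the spread within either group. For Ctsb the log2 fold change was -2.69 ± 0.68 (adjusted p = 0.534), and -2.11 ± 0.56 without replicate 1 (adjusted p = 0.707).

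Idh3a, Acd and Nploc4 were also among these 11 genes. Idh3a, a subunit of isocitrate dehydrogenase in the citric acid cycle, had 2.42, 1.98 and 1.54 FPKM in DNBS_GR159897 libraries, against 7.56, 8.56 and 9.16 FPKM in DNBS_Vehicle libraries. Acd, the telomere protein TPP1, had 2.46, 3.42 and 2.09 FPKM in DNBS_GR159897 libraries, against 9.52, 7.25 and 16.1 FPKM in DNBS_Vehicle libraries. Nploc4, a cofactor of p97, had 2.26, 2.87 and 0.07 FPKM in DNBS_GR159897 libraries, against 9.62, 12.2 and 10.2 FPKM in DNBS_Vehicle libraries. In all 3 the groups were separate, at adjusted p of 0.534, 0.493 and 0.486 for Idh3a, Acd and Nploc4 with all libraries and of 0.702, 0.707 and 0.51 without replicate 1. Mcts2, an imprinted retrocopy of the translation factor gene Mcts1, had 1.91, 3.43 and 0 FPKM in DNBS_GR159897 libraries, against 21.6, 14.2 and 13.2 FPKM in DNBS_Vehicle libraries, and reads of the 2 copies may have been shared between them. For Mcts2 the log2 fold change was -2.86 ± 0.50 (adjusted p = 0.152), and -3.01 ± 0.55 without replicate 1 (adjusted p = 0.323). Syndig1, a membrane protein of excitatory synapses, had 0, 0.97 and 0.47 FPKM in DNBS_GR159897 libraries, against 4.69, 3.8 and 6.42 FPKM in DNBS_Vehicle libraries. Cmtm3, a MARVEL-domain membrane protein, had 1.75, 6.75 and 4.74 FPKM in DNBS_GR159897 libraries, against 15.97, 18.1 and 16.00 FPKM in DNBS_Vehicle libraries. Meox2, a homeobox factor, and Toe1, a nuclease that trims small nuclear RNAs, had log2 fold changes of -1.73 and -1.76 (adjusted p = 0.406 and 0.543) with all libraries and of -1.63 and -2.17 (adjusted p = 0.702 and 0.51) without replicate 1. Meox2 had 0, 0.55 and 0 FPKM in DNBS_GR159897 libraries, against 1.86, 5.74 and 1.94 FPKM in DNBS_Vehicle libraries. However, 7 unannotated loci named Meox2 summed to 9.43, 2.4 and 2.97 FPKM in DNBS_GR159897 libraries, against 0, 0 and 3.46 FPKM in DNBS_Vehicle libraries, and with them the groups overlap.

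**Figure D2:**
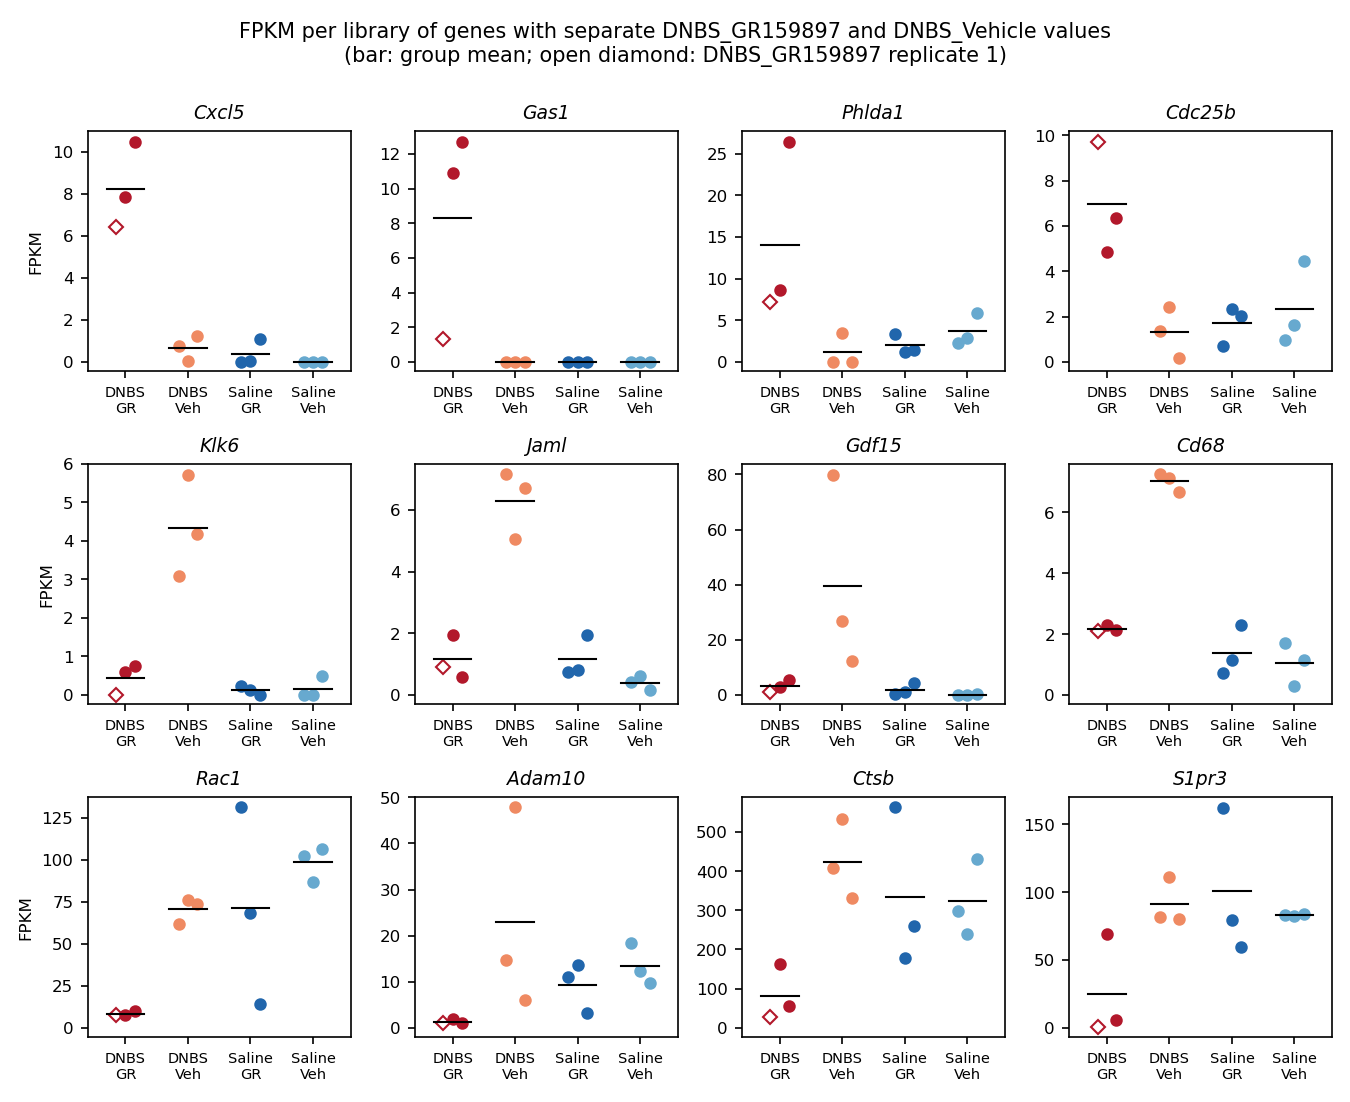
FPKM per library of 12 genes in the order DNBS_GR159897 (DNBS GR), DNBS_Vehicle (DNBS Veh), Saline_GR159897 (Saline GR) and Saline_Vehicle (Saline Veh), with bars at group means and replicate 1 of DNBS_GR159897 as an open diamond. Cxcl5, Gas1, Phlda1 and Cdc25b are higher under the antagonist in colitis, Klk6, Jaml, Gdf15 and Cd68 are high in DNBS_Vehicle alone, and Rac1, Adam10, Ctsb and S1pr3 include the lowest values of their rows in DNBS_GR159897.

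Whether GR159897 acted otherwise in colitis than without it was tested as the interaction, the log2 difference under the antagonist in DNBS mice minus that in saline mice. Of 12777 genes 0 passed (0.0%) and 457 had an unadjusted p under 0.05 (3.58%). Without replicate 1, 1 passed (0.00783%), Gas1, with an adjusted p of 0.00913, and 409 had an unadjusted p under 0.05 (3.2%). As said above, Gas1 met the filter only through the DNBS_GR159897 libraries. With all libraries, the smallest adjusted p of a named gene was that of Jaml, with an interaction of -2.41 ± 0.49 (adjusted p = 0.765). For Gdf15 the interaction was -4.23 ± 0.93 (adjusted p = 0.874), for Cxcl5 2.12 ± 0.54 (adjusted p = 0.957), for Klk6 -1.85 ± 0.47 (adjusted p = 0.957) and for Rac1 -1.97 ± 0.92 (adjusted p = 0.957). Without replicate 1 the interaction was -2.35 ± 0.51 for Jaml, -3.82 ± 0.95 for Gdf15, 2.27 ± 0.57 for Cxcl5, -1.61 ± 0.46 for Klk6 and -1.93 ± 0.92 for Rac1, with no adjusted p under 0.694. Other genes with a difference in colitis are therefore not shown to lack one in saline mice.

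The receptor and its ligand did not separate the groups. Tacr2 had 0.08, 2.05 and 1.95 FPKM in DNBS_GR159897 libraries, against 0.53, 7.22 and 1.47 FPKM in DNBS_Vehicle libraries. DNBS_Vehicle replicate 2 was the highest, and the groups overlap. For Tacr2 the log2 fold change was -0.56 ± 0.63 (adjusted p = 0.758) with all libraries and -0.07 ± 0.65 without replicate 1, with 95% intervals of -1.91 to 0.80 and -1.48 to 1.35. Without DNBS_Vehicle replicate 2 it was 0.13. Tac1, which encodes neurokinin A and substance P, had 10.8, 53.9 and 45.6 FPKM in DNBS_GR159897 libraries, against 48.05, 11.5 and 76.1 FPKM in DNBS_Vehicle libraries, again with overlap. For Tac1 it was -0.21 ± 0.72 (adjusted p = 0.928) with all libraries and 0.48 ± 0.64 without replicate 1, and 0.26 after scaling to the annotated total. Tacr1, the substance P receptor, had 0.38, 2.38 and 2.22 FPKM in DNBS_GR159897 libraries, against 1.08, 1.21 and 1.32 FPKM in DNBS_Vehicle libraries, above the vehicle group in replicates 2 and 3 and below it in replicate 1. Another 37 unannotated loci named Tacr1 summed to 32.9, 45.5 and 11.1 FPKM in DNBS_GR159897 libraries, against 10.9, 12.6 and 3.25 FPKM in DNBS_Vehicle libraries. Tacr3, the neurokinin B receptor, had 0, 1.25 and 0.64 FPKM in DNBS_GR159897 libraries, against 0.18, 2.08 and 1.25 FPKM in DNBS_Vehicle libraries, with the saline libraries at 4.33 to 9.69 FPKM. Ece1, an endopeptidase that cuts internalised substance P, had 8.8, 17.7 and 10.5 FPKM in DNBS_GR159897 libraries, against 23.7, 37.2 and 13.6 FPKM in DNBS_Vehicle libraries. Of the 7 tested genes of the tachykinin system, 6 of 7 with all libraries and 4 of 7 without replicate 1 were lower.

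Downstream of the receptor, 16 of 23 tested genes of Gq and calcium signalling were lower with all libraries and 11 of 23 without replicate 1, beside 62.7% and 55.2% of all genes, and their median log2 fold change was -0.22 with all libraries and 0.06 without replicate 1. For all genes tested the medians were -0.21 and -0.06. Gna11, the alpha subunit of a Gq-family protein, had 3.88, 6.12 and 5.74 FPKM in DNBS_GR159897 libraries, against 15.3, 6.75 and 19.98 FPKM in DNBS_Vehicle libraries, without overlap. For Gna11 the log2 fold change was -1.17 ± 0.47 (adjusted p = 0.607) with all libraries and -0.9998 ± 0.49 without replicate 1. Prkcd, a protein kinase C isoform that epithelium also expresses, had 63.8, 6.24 and 1.46 FPKM in DNBS_GR159897 libraries, against 3.46, 1.35 and 0.99 FPKM in DNBS_Vehicle libraries, highest in replicate 1, where epithelial markers sum to 3241 FPKM. With 4 unannotated loci named Prkcd added, its groups did not overlap. For Prkcd it was 1.93 ± 0.87 (adjusted p = 0.607) with all libraries and 0.62 ± 0.51 without replicate 1. The median of the 23 genes changed sign with the scaling.

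Scaling moved the median of all genes from -0.21 to 0.11 with all libraries and from -0.06 to 0.05 without replicate 1 (scaled to the annotated total), so the lists are set beside those values. Of 46 lists of genes with tested members, 16 had a median below 0 and 5 above 0 in each of the 3 scalings with and without replicate 1, and 25 changed sign. Some kept their sign by little. Without replicate 1, ER folding and enteric glia were at -0.0058 and -0.0056 after quantile normalisation, and the tachykinin system at -0.0025 when scaled. On the other side, complement was at 0.013 with all libraries. The lists with the lowest medians without replicate 1 that kept their sign were neutrophil chemokines (4 genes), immediate early genes, cytokines, the integrated stress response and reactive glia. The 5 above 0 were MHC class II presentation, complement, endothelin, endothelium and interstitial cells of Cajal. No p is given for a list. Most list members named in the text were picked, up to 4 per list, for the smallest p-values in both fits. Their differences are thus part of how they were chosen. Over all genes, with all libraries, the groups did not overlap in 6.89% that were lower and 3.19% that were higher.

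**Figure D3:**
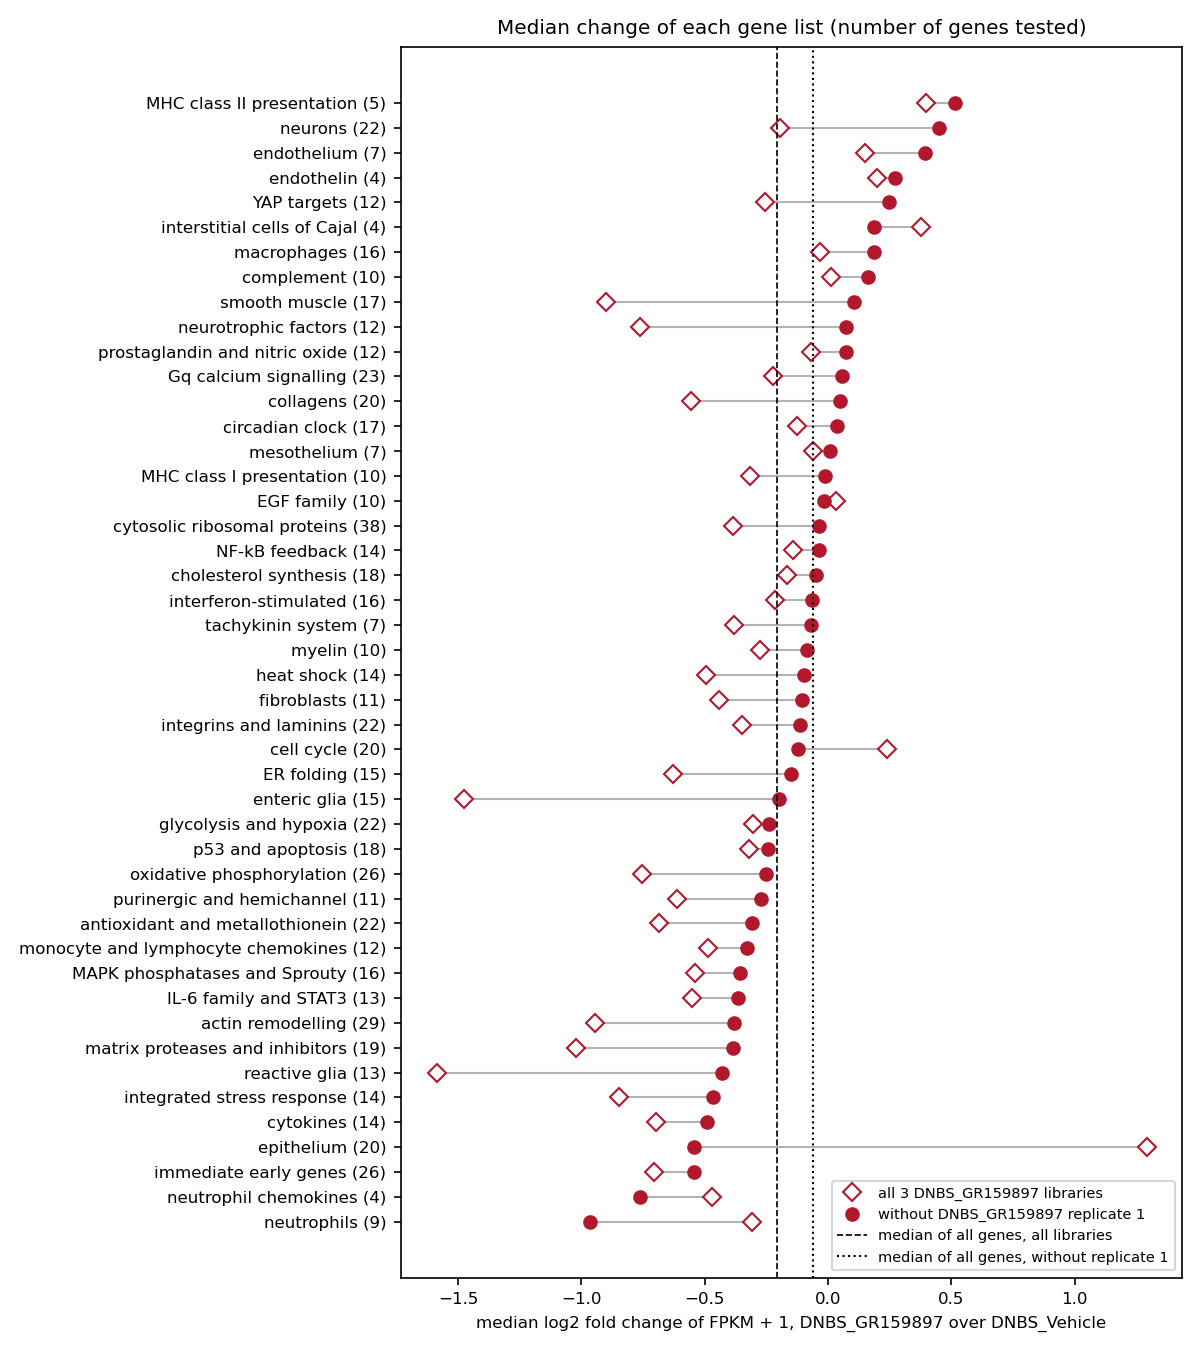
Median log2 fold change of FPKM + 1, DNBS_GR159897 over DNBS_Vehicle, of each gene list with at least 4 genes tested, with all libraries (open diamonds) and without replicate 1 of DNBS_GR159897 (filled circles), beside the medians of all genes (dashed -0.21, dotted -0.06). Epithelial, glial and smooth muscle lists move most between the 2 fits, and cytokines and immediate early genes are below both medians in both fits.

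Markers of enteric glia were lower in 15 of 15 tested genes with all libraries and in 9 of 15 without replicate 1, with a median of -1.48 with all libraries and -0.20 without replicate 1. Without replicate 1 the glial median was -0.06 scaled to the annotated total and -0.0056 after quantile normalisation. The medians of all genes were then 0.05 and 0.0068. Sox10, the transcription factor that maintains glial identity and that drives the Cre used here, was low in all 3 antagonist libraries. That included replicate 3, where S100b and Gfap lay within the vehicle range. The glial markers of replicates 2 and 3 summed to 884 and 1108 FPKM, however, below every DNBS_Vehicle library. Sox10 had 1.3, 4.63 and 6.79 FPKM in DNBS_GR159897 libraries, against 9.04, 184 and 127 FPKM in DNBS_Vehicle libraries. All antagonist libraries were below all vehicle libraries, but DNBS_Vehicle replicate 1 and Saline_Vehicle replicate 2 were also low, at 9.04 and 15.4 FPKM, where the other saline libraries had 141 to 248 FPKM. For Sox10 the log2 fold change was -3.73 ± 1.13 (adjusted p = 0.545) with all libraries and -3.23 ± 1.34 without replicate 1. S100b, a calcium-binding protein of glia, had 1.17, 94.03 and 135 FPKM in DNBS_GR159897 libraries, against 108, 168 and 98.2 FPKM in DNBS_Vehicle libraries, and Gfap, the intermediate filament that rises in reactive glia, had 0.9, 79.7 and 201 FPKM in DNBS_GR159897 libraries, against 184, 289 and 236 FPKM in DNBS_Vehicle libraries. In both genes replicate 3 of the antagonist group lay within the vehicle range, and replicates 1 and 2 lay below it. For S100b the log2 fold change was -2.01 ± 1.16 (adjusted p = 0.622) with all libraries and -0.11 ± 0.39 without replicate 1. For Gfap it was -2.90 ± 1.40 (adjusted p = 0.618) with all libraries and -0.87 ± 0.58 without replicate 1, in a fit without the 3 Saline_Vehicle libraries, where Gfap has no value. Erbb3, the neuregulin receptor of glia, had 5.52, 9.31 and 9.06 FPKM in DNBS_GR159897 libraries, against 12.1, 28.8 and 9.48 FPKM in DNBS_Vehicle libraries, without overlap unless an unannotated locus of that name is added, and its log2 fold change was -0.87 ± 0.45 (adjusted p = 0.618) with all libraries and -0.65 ± 0.44 without replicate 1.

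**Figure D4:**
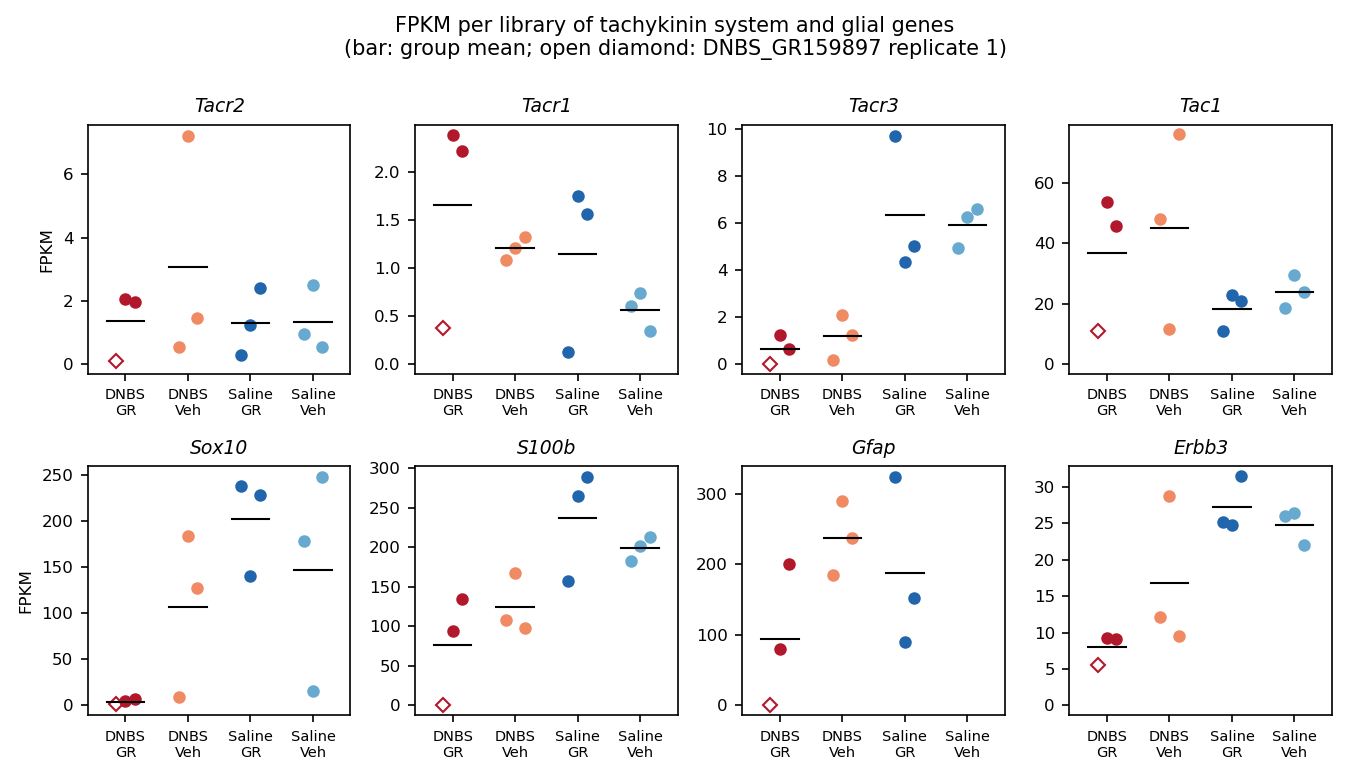
FPKM per library of 4 tachykinin genes and 4 glial genes, in the order DNBS_GR159897 (DNBS GR), DNBS_Vehicle (DNBS Veh), Saline_GR159897 (Saline GR) and Saline_Vehicle (Saline Veh), with bars at group means and replicate 1 of DNBS_GR159897 as an open diamond; Gfap has no value in Saline_Vehicle. Tacr2, Tacr1, Tacr3 and Tac1 overlap between the DNBS groups, and Sox10 is at 1.3 to 6.79 FPKM in DNBS_GR159897 although S100b is at 94.03 and 135 FPKM in replicates 2 and 3.

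Genes of the reactive state were lower in 11 of 13 with all libraries and 10 of 13 without replicate 1, with a median of -1.59 with all libraries and -0.43 without replicate 1. S1pr3, a sphingosine-1-phosphate receptor that marks reactive astrocytes, had 0.58, 68.9 and 5.68 FPKM in DNBS_GR159897 libraries, against 81.4, 111 and 80.3 FPKM in DNBS_Vehicle libraries. Its groups were separate, and replicates 1 and 3 were the low ones while replicate 2 approached the vehicle range. For S1pr3 the log2 fold change was -3.33 ± 1.00 (adjusted p = 0.545) with all libraries and -2.07 ± 0.77 without replicate 1. Hspb1, a small heat shock protein of stressed glia, had 37.6, 935 and 1227 FPKM in DNBS_GR159897 libraries, against 2354, 1966 and 4938 FPKM in DNBS_Vehicle libraries, with saline libraries at 34.7 to 311 FPKM. The groups did not overlap, and all but replicate 1 of the DNBS libraries were above every saline library. For Hspb1 the log2 fold change was -3.00 ± 1.26 (adjusted p = 0.607) with all libraries and -1.41 ± 0.97 without replicate 1. Cxcl10, a chemokine for T cells, had 1.8, 2.36 and 6.32 FPKM in DNBS_GR159897 libraries, against 17.04, 16.5 and 8.66 FPKM in DNBS_Vehicle libraries, also separate, and its log2 fold change was -1.82 ± 0.69 (adjusted p = 0.607) with all libraries and -1.55 ± 0.77 without replicate 1. In purinergic and hemichannel signalling, by which glia release and sense ATP, 8 of 11 with all libraries and 6 of 11 without replicate 1 were lower. Gjb2, a connexin, had 0.39, 1.49 and 2.79 FPKM in DNBS_GR159897 libraries, against 2.3, 4.39 and 5.16 FPKM in DNBS_Vehicle libraries. Its saline libraries had 0 to 0.46 FPKM, and the DNBS groups overlapped between 2.3 and 2.79 FPKM.

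Cytokines and the IL-6 and STAT3 pathway were lower in most of their members. Of 14 tested cytokines 12 of 14 with all libraries and 12 of 14 without replicate 1 were lower, with a median of -0.70 with all libraries and -0.49 without replicate 1. Lif, a cytokine of the IL-6 family, had 0.01, 6.57 and 2.19 FPKM in DNBS_GR159897 libraries, against 12.2, 4.86 and 7.59 FPKM in DNBS_Vehicle libraries, and 0.02 to 1.06 FPKM in saline libraries. The DNBS groups overlapped through replicate 2. For Lif the log2 fold change was -1.59 ± 0.59 (adjusted p = 0.607) with all libraries and -0.83 ± 0.47 without replicate 1. Tgfb1, the regulatory cytokine TGF-beta 1, had 0.34, 2.59 and 4.75 FPKM in DNBS_GR159897 libraries, against 5.46, 5.64 and 5.18 FPKM in DNBS_Vehicle libraries, lower in each antagonist library, but replicate 3 exceeded the vehicle group when an unannotated locus named Tgfb1 was added. For Tgfb1 it was -1.09 ± 0.48 (adjusted p = 0.607) with all libraries and -0.50 ± 0.38 without replicate 1. In the IL-6 and STAT3 pathway 11 of 13 with all libraries and 11 of 13 without replicate 1 were lower. Lifr, the receptor of Lif, had 0.73, 1.15 and 0.77 FPKM in DNBS_GR159897 libraries, against 2.58, 4.93 and 1.41 FPKM in DNBS_Vehicle libraries, and Socs3, the feedback inhibitor of STAT3, had 1.03, 24.8 and 23.6 FPKM in DNBS_GR159897 libraries, against 36.3, 26.4 and 57.95 FPKM in DNBS_Vehicle libraries. For Lifr the log2 fold change was -0.99 ± 0.48 (adjusted p = 0.617) with all libraries and -0.93 ± 0.54 without replicate 1, and for Socs3 it was -1.85 ± 0.89 (adjusted p = 0.617) with all libraries and -0.64 ± 0.62 without replicate 1. In both, picked from the list for their small p-values, the antagonist values were below every vehicle value.

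Chemokines for monocytes and lymphocytes were lower in 7 of 12 with all libraries and 8 of 12 without replicate 1. Ccl2, the main monocyte attractant, had 11.8, 65.3 and 202 FPKM in DNBS_GR159897 libraries, against 695, 159.9 and 129 FPKM in DNBS_Vehicle libraries, with saline libraries at 6.03 to 34.1 FPKM. Replicate 3 of the antagonist group lay within the vehicle range. For Ccl2 the log2 fold change was -2.13 ± 0.94 (adjusted p = 0.607) with all libraries and -1.07 ± 0.80 without replicate 1. Cxcl12, the ligand of CXCR4, had 0.87, 3.1 and 9.82 FPKM in DNBS_GR159897 libraries, against 16.6, 14.5 and 7.83 FPKM in DNBS_Vehicle libraries. Genes of prostaglandin and nitric oxide synthesis were lower in 7 of 12 with all libraries and 5 of 12 without replicate 1, and their median changed sign with the scaling. Ptgs2, the inducible cyclooxygenase that makes prostaglandins, had 1.71, 6.83 and 1.02 FPKM in DNBS_GR159897 libraries, against 4.54, 27.8 and 17.3 FPKM in DNBS_Vehicle libraries, and 0.1 to 0.59 FPKM in saline libraries. Replicate 2 overlapped with the lowest vehicle library. For Ptgs2 the log2 fold change was -2.03 ± 0.59 (adjusted p = 0.543) with all libraries and -1.85 ± 0.66 without replicate 1. Feedback genes of NF-kB were lower in 9 of 14 with all libraries and 7 of 14 without replicate 1, close to the share of all genes, and their median changed sign with the scaling. Among them Nfkbib, an inhibitor of NF-kB, had 1.1, 6.28 and 14.1 FPKM in DNBS_GR159897 libraries, against 30.6, 9.84 and 20.4 FPKM in DNBS_Vehicle libraries.

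Immediate early genes, transcription factors and regulators that cells switch on within minutes of a stimulus, were lower in 23 of 26 with all libraries and 17 of 26 without replicate 1, with a median of -0.70 with all libraries and -0.55 without replicate 1. Egr1, a zinc-finger factor induced through the MAP kinase ERK, had 4.46, 0.42 and 12.1 FPKM in DNBS_GR159897 libraries, against 25.3, 26.9 and 16.8 FPKM in DNBS_Vehicle libraries, and 1.08 to 8.95 FPKM in saline libraries. All antagonist libraries were below all vehicle libraries, by the most in replicate 2. For Egr1 the log2 fold change was -2.34 ± 0.68 (adjusted p = 0.543), and -2.45 ± 0.78 without replicate 1 (adjusted p = 0.887). Ier3, a survival gene of the NF-kB response, had 30.1, 231 and 24.1 FPKM in DNBS_GR159897 libraries, against 288, 185 and 384 FPKM in DNBS_Vehicle libraries. Replicate 2 overlapped with the vehicle group. For Ier3 it was -2.28 ± 0.78 (adjusted p = 0.607) with all libraries and -1.85 ± 0.80 without replicate 1. Klf6, a Krüppel-like factor of injury, had 14.8, 37.8 and 23.1 FPKM in DNBS_GR159897 libraries, against 49.7, 40.2 and 60.9 FPKM in DNBS_Vehicle libraries, without overlap. Of 16 phosphatases, Sprouty proteins and other feedback genes of MAP kinases 12 of 16 with all libraries and 11 of 16 without replicate 1 were lower. Dusp6, the phosphatase of ERK, had 6.39, 6.92 and 1.34 FPKM in DNBS_GR159897 libraries, against 17.96, 16.1 and 11.2 FPKM in DNBS_Vehicle libraries, without overlap, all below the saline libraries at 18.6 to 33.4 FPKM. For Dusp6 the log2 fold change was -1.62 ± 0.49 (adjusted p = 0.545), and -1.88 ± 0.49 without replicate 1 (adjusted p = 0.707). Spry2, a feedback inhibitor of receptor tyrosine kinases, had 7.36, 25.6 and 19.2 FPKM in DNBS_GR159897 libraries, against 13.6, 1.34 and 6.14 FPKM in DNBS_Vehicle libraries, but an unannotated locus of the same name, with higher values, had 24.1, 61.4 and 46.6 FPKM in DNBS_GR159897 libraries, against 36.5, 110.2 and 57.6 FPKM in DNBS_Vehicle libraries, so no direction is given for it.

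Of the lists of stress responses, the integrated stress response and the antioxidant genes had medians below 0 in each scaling, and the heat shock genes did not. In the integrated stress response, which slows translation and induces repair genes, 11 of 14 with all libraries and 11 of 14 without replicate 1 were lower, with a median of -0.85 with all libraries and -0.47 without replicate 1. Atf4, the transcription factor at its centre, had 159.7, 258 and 25.7 FPKM in DNBS_GR159897 libraries, against 18.2, 11.7 and 43.3 FPKM in DNBS_Vehicle libraries. Replicate 3 overlapped with the vehicle group. For Atf4 the log2 fold change was 2.23 ± 0.94 (adjusted p = 0.607) with all libraries and 1.91 ± 1.09 without replicate 1. Psat1 and Asns, which make serine and asparagine and are targets of ATF4, had the other direction. Psat1 had 0.41, 2.3 and 1.59 FPKM in DNBS_GR159897 libraries, against 5.88, 5.91 and 4.65 FPKM in DNBS_Vehicle libraries. Asns had 1.7, 2.93 and 11.02 FPKM in DNBS_GR159897 libraries, against 11.1, 11.4 and 11.1 FPKM in DNBS_Vehicle libraries. For Psat1 the log2 fold change was -1.49 ± 0.53 (adjusted p = 0.607) with all libraries and -1.14 ± 0.55 without replicate 1, and for Asns -1.27 ± 0.51 (adjusted p = 0.607) with all libraries and -0.82 ± 0.50 without replicate 1. Of 22 antioxidant and metallothionein genes 20 of 22 with all libraries and 17 of 22 without replicate 1 were lower, with a median of -0.68 with all libraries and -0.31 without replicate 1. Of 14 heat shock genes 11 of 14 with all libraries and 7 of 14 without replicate 1 were lower, with a median that changed sign with the scaling. Cryab, a small heat shock protein of glia and muscle, had 3.75, 137 and 444 FPKM in DNBS_GR159897 libraries, against 919, 233 and 1284 FPKM in DNBS_Vehicle libraries, and overlapped through replicate 3.

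Genes of the matrix and the cytoskeleton were next. Of 19 matrix proteases and inhibitors 17 of 19 with all libraries and 15 of 19 without replicate 1 were lower, with a median of -1.02 with all libraries and -0.39 without replicate 1. Plat, the tissue plasminogen activator, had 0.16, 5.1 and 1.26 FPKM in DNBS_GR159897 libraries, against 24.3, 15.1 and 14.6 FPKM in DNBS_Vehicle libraries, and 8.24 to 43.0 FPKM in saline libraries. Its groups were separate. For Plat the log2 fold change was -2.88 ± 0.67 (adjusted p = 0.493), and -2.32 ± 0.67 without replicate 1 (adjusted p = 0.743). Timp3, an inhibitor of metalloproteinases, had 10.04, 3.94 and 93.1 FPKM in DNBS_GR159897 libraries, against 132, 142 and 95.8 FPKM in DNBS_Vehicle libraries, with replicate 3 just under the lowest vehicle library. For Timp3 it was -2.83 ± 1.24 (adjusted p = 0.607) with all libraries and -2.51 ± 1.53 without replicate 1. Bmp1, which trims procollagen, had 2.98, 13.5 and 13.7 FPKM in DNBS_GR159897 libraries, against 24.6, 26.2 and 22.2 FPKM in DNBS_Vehicle libraries. However, 7 unannotated loci named Bmp1 summed to 22.7, 41.2 and 9.89 FPKM in DNBS_GR159897 libraries, against 8.64, 1.63 and 1.62 FPKM in DNBS_Vehicle libraries, and with them the groups overlap, so no direction is given for it. Collagens were lower in 18 of 20 with all libraries and 9 of 20 without replicate 1, and their median changed sign with replicate 1. Of 29 genes of actin remodelling 24 of 29 with all libraries and 23 of 29 without replicate 1 were lower, with a median of -0.94 with all libraries and -0.38 without replicate 1. Rhoa, a GTPase of stress fibres, had 8.08, 20.2 and 31.2 FPKM in DNBS_GR159897 libraries, against 37.8, 43.4 and 39.4 FPKM in DNBS_Vehicle libraries, and its log2 fold change was -1.16 ± 0.51 (adjusted p = 0.607) with all libraries and -0.66 ± 0.39 without replicate 1. Myh9, the heavy chain of nonmuscle myosin, which epithelium expresses as well, had 91.2, 25.6 and 15.2 FPKM in DNBS_GR159897 libraries, against 19.3, 3.01 and 11.8 FPKM in DNBS_Vehicle libraries, with the highest value in replicate 1.

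In energy metabolism, nuclear genes of oxidative phosphorylation were lower in 25 of 26 with all libraries and 20 of 26 without replicate 1, with a median of -0.76 with all libraries and -0.25 without replicate 1. Sdhc, a subunit of succinate dehydrogenase, had 9.66, 15.5 and 20.5 FPKM in DNBS_GR159897 libraries, against 29.9, 22.2 and 43.8 FPKM in DNBS_Vehicle libraries, without overlap. For Sdhc the log2 fold change was -1.03 ± 0.43 (adjusted p = 0.607) with all libraries and -0.76 ± 0.36 without replicate 1. Genes of glycolysis and hypoxia were lower in 15 of 22 with all libraries and 16 of 22 without replicate 1, with a median that changed sign with the scaling. Bnip3, a mitophagy receptor induced by hypoxia, had 4.71, 3.72 and 14.4 FPKM in DNBS_GR159897 libraries, against 37.2, 28.2 and 25.98 FPKM in DNBS_Vehicle libraries, and 9.14 to 90.3 FPKM in saline libraries. For Bnip3 it was -2.06 ± 0.59 (adjusted p = 0.543), and -1.86 ± 0.61 without replicate 1 (adjusted p = 0.909). Gapdh, the glycolytic dehydrogenase, which has many processed pseudogenes that may take its reads, had 12.9, 11.6 and 21.6 FPKM in DNBS_GR159897 libraries, against 36.2, 44.02 and 22.7 FPKM in DNBS_Vehicle libraries. Slc2a1, the glucose transporter GLUT1, had 1.93, 2.5 and 4.28 FPKM in DNBS_GR159897 libraries, against 6.33, 5.42 and 7.07 FPKM in DNBS_Vehicle libraries. Neither Slc2a1 nor Gapdh nor Bnip3 overlapped between the groups, although Slc2a1 did when an unannotated locus of that name was added. Cytosolic ribosomal protein genes, among them the tagged Rpl22, were lower in 31 of 38 with all libraries and 22 of 38 without replicate 1, and their median changed sign with the scaling.

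Markers of other cell types moved differently between the fits. Neuronal markers were higher in 7 of 22 with all libraries and 17 of 22 without replicate 1, beside 37.2% and 44.6% of all genes, with a median of -0.20 with all libraries and 0.45 without replicate 1. Npy, a neuropeptide, had 0, 20.8 and 16.8 FPKM in DNBS_GR159897 libraries, against 24.9, 31.1 and 74.9 FPKM in DNBS_Vehicle libraries, and its log2 fold change was -2.45 ± 0.92 (adjusted p = 0.607) with all libraries and -1.01 ± 0.45 without replicate 1. Nefm, a neurofilament subunit, had 0.73, 3.22 and 4.63 FPKM in DNBS_GR159897 libraries, against 1.85, 1.02 and 1.65 FPKM in DNBS_Vehicle libraries, above all vehicle libraries in replicates 2 and 3. Neuronal markers summed to 139, 1552 and 1770.5 FPKM in DNBS_GR159897 libraries, against 1584, 1089.5 and 2391 FPKM in DNBS_Vehicle libraries. Smooth muscle markers summed to 415, 4480.0 and 4986 FPKM in DNBS_GR159897 libraries, against 3969.8, 2979 and 8749 FPKM in DNBS_Vehicle libraries. Acta2, smooth muscle actin, had 47.4, 434 and 609.9 FPKM in DNBS_GR159897 libraries, against 599, 610.4 and 1005 FPKM in DNBS_Vehicle libraries. The antagonist libraries other than replicate 1 thus held neuronal and muscle RNA at sums within the vehicle range. Whether these cells had a part in the differences above was not tested.

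Macrophage markers did not move as 1 group: 8 were higher and 8 lower of 16 with all libraries, and 11 were higher and 5 lower without replicate 1. Cd68, a lysosomal membrane protein of phagocytes, had 2.1, 2.31 and 2.12 FPKM in DNBS_GR159897 libraries, against 7.25, 7.14 and 6.66 FPKM in DNBS_Vehicle libraries, and 0.29 to 2.3 FPKM in saline libraries. The groups were separate with little spread within either. For Cd68 the log2 fold change was -1.34 ± 0.36 (adjusted p = 0.543), and -1.32 ± 0.40 without replicate 1 (adjusted p = 0.807). Cd14, the co-receptor for bacterial lipopolysaccharide, had 2.31, 4.92 and 13.8 FPKM in DNBS_GR159897 libraries, against 0.45, 3.34 and 0.09 FPKM in DNBS_Vehicle libraries, with an overlap. For Cd14 it was 1.80 ± 0.68 (adjusted p = 0.607), and 2.30 ± 0.72 without replicate 1 (adjusted p = 0.887). Neutrophil markers were lower in 6 of 9 with all libraries and 8 of 9 without replicate 1, with a median of -0.31 with all libraries and -0.97 without replicate 1. They summed to 269, 56.1 and 47.3 FPKM in DNBS_GR159897 libraries, against 492, 578 and 12.3 FPKM in DNBS_Vehicle libraries, so that DNBS_Vehicle replicate 3 was the lowest of all 6 libraries and the groups overlap. S100a8, a subunit of calprotectin, had 65.9, 11.7 and 20.2 FPKM in DNBS_GR159897 libraries, against 233, 127 and 8.69 FPKM in DNBS_Vehicle libraries, and Il1r2, the decoy receptor of interleukin 1, had 5.82, 0.89 and 0 FPKM in DNBS_GR159897 libraries, against 10.5, 2.43 and 2.36 FPKM in DNBS_Vehicle libraries. For S100a8 the log2 fold change was -1.33 ± 1.07 (adjusted p = 0.668) with all libraries and -2.01 ± 1.20 without replicate 1, and for Il1r2 it was -1.12 ± 0.62 (adjusted p = 0.618), and -1.89 ± 0.52 without replicate 1 (adjusted p = 0.722). Of 20 lymphocyte and mast cell markers, 13 were below the filter on low values, 6 had no annotated locus and 1 lay in a merged locus, so none was tested.

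Epithelial markers were higher in 20 of 20 tested genes with all libraries and in 6 of 20 without replicate 1, with a median of 1.29 with all libraries and -0.54 without replicate 1. Epcam, an epithelial adhesion molecule, had 183, 0.42 and 0 FPKM in DNBS_GR159897 libraries, against 1.87, 0.09 and 4.86 FPKM in DNBS_Vehicle libraries. Muc2, the goblet cell mucin, had 349.7, 0.37 and 0.2 FPKM in DNBS_GR159897 libraries, against 6.94, 0.11 and 1.62 FPKM in DNBS_Vehicle libraries. Both were high in replicate 1 alone, and the direction turned without it: for Epcam the log2 fold change was 1.28 ± 1.55 (adjusted p = 0.777) with all libraries and -1.15 ± 0.72 without replicate 1, and for Muc2 it was 1.55 ± 1.69 (adjusted p = 0.753) with all libraries and -1.15 ± 0.69 without replicate 1. Krt8, a keratin, had 53.6, 5.87 and 5.23 FPKM in DNBS_GR159897 libraries, against 1.93, 0.14 and 3.00 FPKM in DNBS_Vehicle libraries, higher in each antagonist library. For Krt8 it was 2.48 ± 0.85 (adjusted p = 0.607) with all libraries and 1.46 ± 0.72 without replicate 1. Cldn5, a tight junction protein of endothelium, had 0.77, 14.6 and 9.74 FPKM in DNBS_GR159897 libraries, against 0, 0 and 9.29 FPKM in DNBS_Vehicle libraries, and 2 of the vehicle libraries were listed at 0. For Cldn5 it was 1.62 ± 0.96 (adjusted p = 0.624) with all libraries and 2.57 ± 0.92 without replicate 1. In MHC class II presentation 3 of 5 genes were higher with all libraries and 4 of 5 without replicate 1. H2-DMb1, which helps to load class II molecules, had 5.18, 3.58 and 9.82 FPKM in DNBS_GR159897 libraries, against 0.95, 0.29 and 3.46 FPKM in DNBS_Vehicle libraries, without overlap unless an unannotated locus of that name is added, and for it the log2 fold change was 1.59 ± 0.76 (adjusted p = 0.617) with all libraries and 1.65 ± 0.88 without replicate 1.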

How the data were processed

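The members of the comparison and the gene lists were chosen with earlier results of these data known. The authors deposited 1 table of FPKM values per assembled locus and library, per the file headers. StringTie 1.3, HISAT2 2.0, FastQC 0.10.1 and cutadapt 1.10 are named, per the submitters' processing notes, without their roles. The build of the genome was not given in the sources used here. Per the labels' protocols, cDNA was made with the SMART-seq v4 kit and libraries with Nextera, which do not mark strand. FPKM keeps no depth, so no counting interval is given, and RNA of other cells in a library lowers the values of the rest.

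Of 99547 loci, 24432 held an annotated transcript. The locus with the highest mean was kept per symbol (24394 symbols, 38 duplicates left out), and 12778 genes that reached 1 FPKM in 3 or more of 12 libraries were tested. Of 103 genes followed through every alternative, 30 share exon sequence with a gene on the other strand, in GENCODE (GRCm38). log2(FPKM + 1) was fitted over all 12 libraries with limma 3.58.1 in R 4.3.3 (1 coefficient per group, trended and robust prior), two-sided, with Benjamini-Hochberg adjustment over all genes, and a threshold of 0.05. Fold changes on this scale understate those of low genes, and errors are standard errors. The fit was also run on simulated data with the same spread of a gene in every library. Those data held no library like replicate 1 and no unequal spread between groups, so they cannot show how the fit copes with either. Named genes were the 14 higher and 14 lower that had no overlap between groups, at least 3 FPKM in 1 group and the smallest p with and without replicate 1, plus any past the threshold, up to 4 per list, and Tacr1, Tacr2, Tacr3, Tac1, Sox10, S100b, Gfap, Epcam, Muc2 and Acta2. Alternatives changed the pseudocount, filter, scaling, prior, weights, sex term, replicate block, libraries and loci. Figures were made with matplotlib 3.10.9, and tables with numpy 2.4.6 and pandas 2.3.3 (Python 3.11.15). 1 further gene of the rule is not reported here. Promoter sequences were taken from RefSeq (GRCm38.p6).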

Additional observations from a re-analysis of the deposited data

Results flagged for a closer look

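Loci without an annotated transcript were outside the comparison of genes. Of 11471 such loci tested together with the annotated genes, 75 passed an adjusted p of 0.05 (limma with Benjamini-Hochberg adjustment) for DNBS_GR159897 against DNBS_Vehicle, 74 higher and 1 lower under the antagonist. Over all 24256 loci of that fit 79 passed, 4 of them annotated. Without replicate 1 of DNBS_GR159897, 1 passed, of 2 over all loci. The loci without a transcript were shifted as a whole. At an unadjusted p under 0.05 (limma), 1933 of them were higher and 123 lower with all libraries, and 1438 and 85 without replicate 1. The median log2 fold change of the 11471 loci was 0.56 with all libraries and 0.44 without replicate 1. The annotated share of FPKM was 22.6, 56.4 and 64.5% in DNBS_GR159897 libraries, against 75.6, 53.8 and 84.0% in DNBS_Vehicle libraries, and its part in these calls was not tested.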

How the results depend on the processing

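With all libraries the count of genes past an adjusted p of 0.05 (limma) was 0. It was 2 with a pseudocount of 0.1, 3 scaled to the annotated total, 3 after quantile normalisation, 69 with library weights (24 higher and 45 lower under GR159897), 79 over all loci, and 0 to 6 when 1 library was left out (6 without DNBS_GR159897 replicate 3, 2 without DNBS_Vehicle replicate 2, and 1 each without DNBS_GR159897 replicate 1, DNBS_Vehicle replicate 3 or Saline_GR159897 replicate 1). Without DNBS_GR159897 replicate 1 the count was 1, and 3 with the smaller pseudocount, 5 with no filter, 0 at 5 FPKM or more, 0 with only the DNBS groups, 2 with library weights, 2 over all loci, and 1 to 8 with a further library left out. For the interaction it was 0, and 2 with the smaller pseudocount, 1 scaled to the annotated total, 5 with library weights and 0 to 2 with 1 library left out. The cause was not tested. The log2 fold changes of 7 genes had the other sign under some alternative. With 1 library left out at a time, Tacr2 ranged from -1.08 to 0.13, Tac1 from -0.98 to 0.48, Tacr1 from -0.062 to 0.58, Cxcl2 from -0.91 to 1.25, Epcam from -1.15 to 2.62 and Muc2 from -1.15 to 2.94. The library whose absence turned the sign was DNBS_GR159897 replicate 1 for Epcam and Muc2, that or DNBS_Vehicle replicate 3 for Cxcl2, either of these or DNBS_Vehicle replicate 1 for Tac1, DNBS_Vehicle replicate 2 for Tacr2, and DNBS_GR159897 replicate 2 or 3 for Tacr1. With library weights the values were 0.36 for Tacr2, 0.16 for Tac1, 0.36 for Tacr3, -0.94 for Cxcl2, -0.90 for Epcam and -1.35 for Muc2. Tac1 was 0.26 scaled and 0.27 after quantile normalisation, and Cxcl2 was -0.14 with a sex term. Of 2241 values of 103 genes under alternatives, 2203 kept direction and side of the threshold, 19 passed it and 19 had the other sign. Of 1011 list medians, 44 moved by more than 1 SD. Same-numbered libraries of the 2 groups did not deviate together (r = -0.02, -0.06 and 0.13 for replicates 1, 2 and 3), and not every sample correlated best with its own number. With a replicate block the counts were 0 with all libraries, 1 without DNBS_GR159897 replicate 1 and 0 for the interaction.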

Other observations

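The lists of cell cycle and clock genes hold members named above and others. Of 20 tested cell cycle genes 14 were higher under GR159897 with all libraries and 7 without replicate 1, beside 37.2% and 44.6% of all genes. Pcna, the clamp of DNA polymerase, had 10.9, 11.9 and 22.4 FPKM in DNBS_GR159897 libraries, against 35.8, 25.1 and 24.2 FPKM in DNBS_Vehicle libraries. Aurka, a mitotic kinase, had 5.2, 0.96 and 1.73 FPKM in DNBS_GR159897 libraries, against 0.09, 1.51 and 0.66 FPKM in DNBS_Vehicle libraries. Pcna was thus below every vehicle library and Aurka above in 2 of 3, with an adjusted p of 0.618 and 0.607 (limma). Of 17 circadian clock genes 11 were lower with all libraries and 8 without replicate 1, beside 62.7% and 55.2% of all genes. Per3, a repressor of the clock, had 13.9, 11.99 and 1.31 FPKM in DNBS_GR159897 libraries, against 1.51, 4.15 and 1.84 FPKM in DNBS_Vehicle libraries. Its groups overlap, as replicate 3 of the antagonist group was below every vehicle library.

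Of 12 genes of neurotrophic factors and their receptors 11 were lower with all libraries and 5 without replicate 1, beside 62.7% and 55.2% of all genes. Gdnf, the glial factor that supports enteric neurons, had 0, 5.52 and 0.09 FPKM in DNBS_GR159897 libraries, against 3.33, 16.03 and 0.28 FPKM in DNBS_Vehicle libraries. The groups overlap, and within each the level was highest in replicate 2.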
